A study of Mus musculus with 8 samples.

Results

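The oxidoreductases and esterases described here are the liver enzymes that handle alcohols, aldehydes, ketones, esters, amides, epoxides and nitrogen or sulfur compounds without cytochrome P450. They were chosen by gene symbol, as every gene of the table in the families Adh (alcohol dehydrogenases), Aldh (aldehyde dehydrogenases), Akr1 (aldo-keto reductases, except the bile acid enzyme gene Akr1d1), Aox (aldehyde oxidases), Fmo (flavin-containing monooxygenases), Ephx (epoxide hydrolases) and Ces (carboxylesterases). The rule found 76 of the 21899 genes listed. They were read in 8 mouse liver RNA sequencing libraries, 4 from P2X4R-deficient and 4 from wild-type mice, all of which had received ConA and were sampled at 8 h. P2X4R, the product of P2rx4, is an ion channel of the cell surface that opens on binding ATP. ConA, the jack bean lectin concanavalin A, stimulates T cells and so causes hepatitis in mice. The sample labels call the first genotype a P2X4R knockdown and the series text gives it as P2X4R-/-. Neither names a construct, an allele or a targeted cell type, and strain, age and sex are not given. The series asks what depletion of the receptor does to transcripts of the inflamed liver. Both groups are in the treated state, and untreated livers are not analysed here.

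In the liver these enzymes carry out much of the first phase of metabolism of drugs, alcohol, dietary lipids and steroids. Alcohol dehydrogenases and aldehyde dehydrogenases oxidise ethanol, retinol and lipid-derived aldehydes in succession, while aldo-keto reductases run carbonyl groups back to alcohols with NADPH and include several hydroxysteroid dehydrogenases. Flavin monooxygenases oxygenate amines and sulfides, aldehyde oxidases are molybdenum enzymes that hydroxylate heterocycles, epoxide hydrolases open epoxides to diols, and carboxylesterases cleave esters, including drugs, prodrugs and stored triacylglycerol. Most of them are made in hepatocytes, and several are encoded in tandem arrays of closely related genes.

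The libraries held 15445285 to 16604190 counted reads. P2rx4 was read 286, 401, 467 and 516 times in deficient libraries 1 to 4, against 692, 888, 906 and 898 times in wild-type libraries 1 to 4. Its level was 44.2% of wild type (log2 fold change -1.18, SE 0.19, edgeR adjusted p = 0.00481), and reads remained in every deficient library. The count covers the whole gene and does not separate its exons. The first principal component held 46.7% of the variance and separated the genotypes. Whether the libraries are from separate animals is not stated, so p-values reflect no more than the spread between these samples, which may be technical. Levels below are FPKM, read counts divided by gene length in kilobases and by library size, with library totals scaled by edgeR's TMM factors, which allows levels to be compared between genes and between libraries. A gene is called lower or higher at an adjusted p under 0.05 in edgeR's quasi-likelihood test, with Benjamini-Hochberg adjustment over all genes tested.

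Of the 76 genes, 55 had enough reads to be tested, 12 had some reads but too few, and 9 had 0 reads in every library. Of the 55, 23 were lower and 0 were higher in P2X4R-deficient livers. Over all 11380 genes tested, 10.6% were lower and 9.27% were higher. That split was 7.41% and 15.2% with library totals left unscaled by TMM, and 8.43% and 16.6% of the genes tested by limma on log2(FPKM + 1). At an unadjusted p under 0.05, 34 of the 55 were lower and 0 higher, where 2047 of all 11380 genes were lower and 1959 higher. The 17 alternative analyses likewise called 0 of the 55 higher. One alternative, chosen after the data were seen, scaled the libraries to 11 hepatocyte marker genes in place of TMM. DESeq2 called 29 lower and 0 higher. It called 9.7% lower and 8.09% higher of the 16099 genes to which it gave a p-value. That is a wider set than the 11380 tested by edgeR, without the same filter on reads. Log2 fold changes were below 0 for 50 of 55 genes (90.9%), against 50.1% of all genes tested. The median was -0.59, against -0.001471 over all genes. Deficient values lay wholly below wild-type values for 25 of the 55 genes, where the share over all genes was 12.3%, and wholly above for 0, where it was 12.7%. The plot of fold changes by family shows estimates for single genes.

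**Figure D1:**
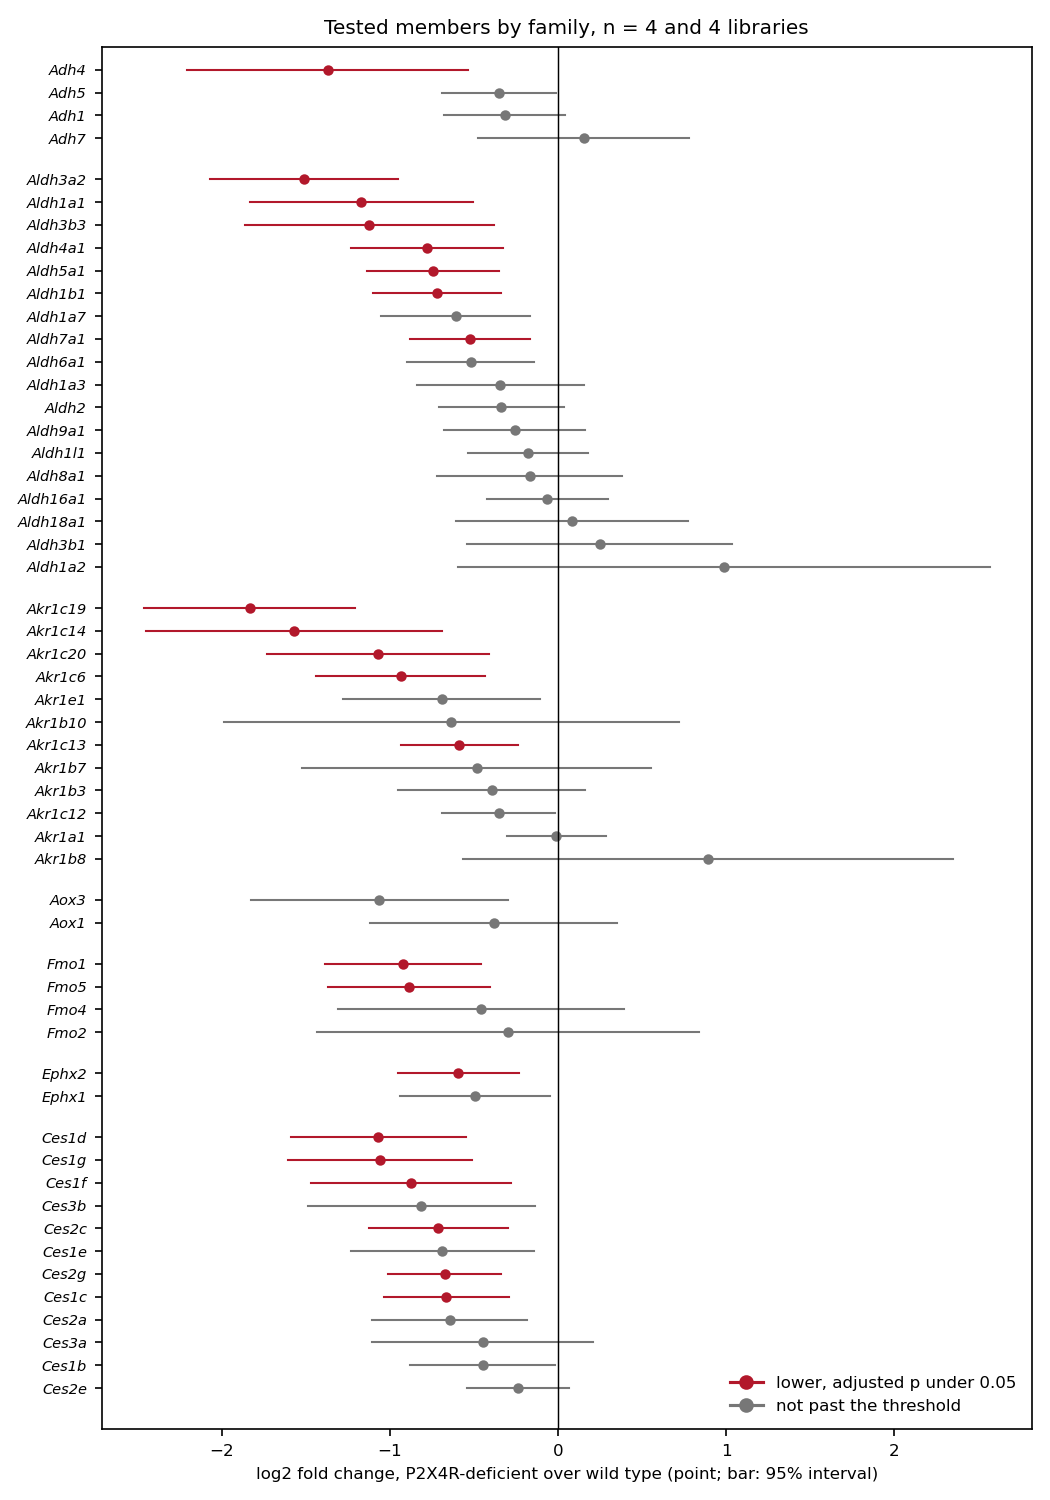
Log2 fold change, P2X4R-deficient over wild type, of tested genes, grouped by family, with 4 libraries per genotype. Points are edgeR estimates, bars are 95% intervals, red marks genes lower at an adjusted p under 0.05 and grey those not past it. Most estimates lie left of 0, and the largest falls among the red genes drawn are in Akr1c19, Akr1c14 and Aldh3a2.

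The falls were spread over 6 of the 7 families. Carboxylesterases had 6 of 12 tested genes lower (median log2 fold change -0.68), flavin monooxygenases 3 of 5 (-0.89), aldo-keto reductases 5 of 12 (-0.61), aldehyde dehydrogenases 7 of 18 (-0.43), epoxide hydrolases 1 of 2 (-0.54) and alcohol dehydrogenases 1 of 4 (-0.33). The aldehyde oxidases had 0 of 2 lower (-0.72), and 1 at an unadjusted p under 0.05. Most falls were in genes of high level. Of 38 genes averaging 10 FPKM or more in either group, 20 were lower and all 38 were below 0, with a median of -0.67. Among the 9 genes between 1 and 10 FPKM 2 were lower, and among the 8 below 1 FPKM 1 was lower. Rare transcripts rest on few reads, and smaller differences among them were not detectable at this depth.

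Summed levels give the relative change in length-scaled transcript level for each family, and they depend on the TMM scaling. Carboxylesterase transcripts summed to 1452 ± 256 FPKM in deficient and 2301 ± 261 FPKM in wild-type livers (SD, n = 4 each), or 63.1% of wild type. The flavin monooxygenase sum was 45.2 ± 14.2 FPKM in deficient and 102 ± 10.7 FPKM in wild-type livers (SD, n = 4 each), or 44.3%. Aldo-keto reductases summed to 316 ± 49.0 FPKM in deficient and 509 ± 104 FPKM in wild-type livers (SD, n = 4 each), or 62.1%. Groups did not overlap for these 3 sums. They did not overlap either for the epoxide hydrolases, at 68.4% of wild type, or the aldehyde dehydrogenases, at 77.0%. For the alcohol dehydrogenases, at 79.4%, and the aldehyde oxidases, at 51.5%, the groups overlapped. A sum is led by its most abundant gene: Ces1c made up 62.8% of the carboxylesterase sum in deficient and in wild-type livers, and Adh1 made up 88.0% of the alcohol dehydrogenase sum in deficient and 87.1% in wild-type livers.

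Promoter sequences from RefSeq (build GRCm38.p6) were matched for 60 of the 76 genes. They run from 250 bases before to 50 bases after the annotated start. The windows shown belong to the gene of smallest p that had an entry in each of the 4 families with most falls, and are shown as the regulatory sequence nearest to transcripts that fell. They lie at chr11:61267137-61267436 on the minus strand (Aldh3a2), chr8:104961468-104961767 on the plus strand (Ces2g), chr13:4233490-4233789 on the plus strand (Akr1c19) and chr3:97628769-97629068 on the plus strand (Fmo5). Capitals mark matches to the motifs searched, and each sequence reads 5′ to 3′ along its gene.
Aldh3a2: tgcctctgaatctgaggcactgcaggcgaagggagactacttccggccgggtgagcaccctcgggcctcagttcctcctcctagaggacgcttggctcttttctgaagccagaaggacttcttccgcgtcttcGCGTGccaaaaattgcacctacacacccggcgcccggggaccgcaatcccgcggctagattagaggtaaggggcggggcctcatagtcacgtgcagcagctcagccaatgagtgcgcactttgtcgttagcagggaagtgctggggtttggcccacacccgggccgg
Ces2g: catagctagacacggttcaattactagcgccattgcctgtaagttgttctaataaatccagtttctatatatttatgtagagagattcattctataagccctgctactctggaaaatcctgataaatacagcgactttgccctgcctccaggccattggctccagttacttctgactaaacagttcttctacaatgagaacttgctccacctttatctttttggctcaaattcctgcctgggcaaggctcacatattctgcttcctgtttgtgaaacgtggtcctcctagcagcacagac
Akr1c19: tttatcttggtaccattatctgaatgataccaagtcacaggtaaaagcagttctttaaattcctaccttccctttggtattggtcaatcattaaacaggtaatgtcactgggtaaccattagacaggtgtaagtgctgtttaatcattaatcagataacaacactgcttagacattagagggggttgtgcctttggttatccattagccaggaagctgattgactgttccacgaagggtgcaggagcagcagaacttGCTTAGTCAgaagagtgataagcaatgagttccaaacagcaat
Fmo5: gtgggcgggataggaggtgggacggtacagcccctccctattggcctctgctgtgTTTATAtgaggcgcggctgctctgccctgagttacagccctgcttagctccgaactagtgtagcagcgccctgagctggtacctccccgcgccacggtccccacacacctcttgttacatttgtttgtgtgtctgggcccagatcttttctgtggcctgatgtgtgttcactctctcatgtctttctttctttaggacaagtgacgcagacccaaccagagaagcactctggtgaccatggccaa
Motifs were searched on both strands. They were GCGTG, the core bound by the aryl hydrocarbon receptor, TGACNNNGC, the antioxidant response element bound by NRF2, CAAAGTCCA for HNF4A, TTGCNNAA for C/EBP factors, and TATAAA, the TATA box. The Aldh3a2 window held 1 GCGTG, and the Akr1c19 window 1 match to TGACNNNGC (GCTTAGTCA, read on the opposite strand). The Fmo5 window held 1 TATAAA on the opposite strand (TTTATA), and the Ces2g window 0 matches. Matches were counted anywhere in a window, so a TATAAA match need not be a TATA box. These matches describe letters in the windows, not binding.

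Motif shares at the genes that were lower can be read beside those of all promoters. GCGTG occurred in 23.5% of 17 entries of genes that were lower and 32.4% of 32851 entries of all genes, and TGACNNNGC in 5.9% against 12.4%. CAAAGTCCA occurred in 0.0% against 0.5%, and TATAAA in 17.6% against 13.6%. TTGCNNAA stood in 11.8% of entries of genes that were lower, in 31.2% of the 32 entries of tested genes that were not called, and in 10.8% of all entries. In those 32 entries the share was 28.1% for GCGTG, 6.2% for TGACNNNGC, 0.0% for CAAAGTCCA and 18.8% for TATAAA. The 17 entries cover 16 of the 23 genes that were lower. Entries were found for 28 of the 32 tested genes that were not called. These shares are descriptions of small sets and were not tested.

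Among the alcohol dehydrogenases, the transcript of highest level did not pass the test and a minor one did. Adh1 (ENSMUSG00000074207), the cytosolic class I enzyme that oxidises ethanol and retinol, stood at 394, 337, 329 and 334 FPKM in deficient libraries 1 to 4, against 528, 441, 423 and 345 FPKM in wild-type libraries 1 to 4. Deficient library 1 lay above wild-type library 4, so the groups overlapped, and the log2 fold change was -0.32 (SE 0.17, edgeR adjusted p = 0.197). Adh4 (ENSMUSG00000037797), the class II enzyme, was at 3.45, 5.998, 4.27 and 4.95 FPKM in deficient livers and at 17.3, 4.46, 18.5 and 8.04 FPKM in wild-type livers. Wild-type libraries 1 and 3 were high and wild-type library 2 lay within the deficient range, which made Adh4 the one lower gene of the 23 whose groups overlapped. Its log2 fold change was -1.37 (SE 0.38, edgeR adjusted p = 0.0285). The call was lost without deficient 1, 3 or 4, or wild-type 1 or 3, at edgeR adjusted p-values of 0.0543 to 0.0918, and in limma on log2(FPKM + 1) (0.0862) or log2(FPKM + 0.1) (0.0891). The ratio of Adh4 to Adh1 overlapped between groups, at 0.00876 to 0.0178 in deficient and 0.0101 to 0.0437 in wild-type livers.

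The other alcohol dehydrogenases did not pass. Adh5, which encodes the glutathione-dependent formaldehyde dehydrogenase that also reduces S-nitrosoglutathione, averaged 36.8 ± 5.20 FPKM in deficient and 46.9 ± 3.59 FPKM in wild-type livers (SD, n = 4 each). Its values did not overlap, but the edgeR adjusted p was 0.129. Adh7, the class IV enzyme better known from stomach, averaged 5.95 ± 1.18 FPKM in deficient and 5.36 ± 2.43 FPKM in wild-type livers (SD, n = 4 each), a log2 fold change of 0.15 with a 95% interval of -0.47 to 0.78. Adh6a and Adh6b had 0 reads, which allows up to 3 reads in a library, or 0.181 to 0.194 CPM (a count per library size).

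Among the aldehyde dehydrogenases, the pair of highest level did not pass and 7 others were lower. Aldh2 (ENSMUSG00000029455), the mitochondrial enzyme that clears acetaldehyde, was the most abundant at 233, 332, 336 and 276 FPKM in deficient libraries 1 to 4, against 336, 338, 432 and 382 FPKM in wild-type libraries 1 to 4. Its ranges met near 336 FPKM, and the log2 fold change was -0.34 (SE 0.17, edgeR adjusted p = 0.18, 95% interval -0.71 to 0.03). Aldh1l1, the cytosolic formyltetrahydrofolate dehydrogenase of the folate cycle, averaged 205 ± 33.9 FPKM in deficient and 232 ± 17.3 FPKM in wild-type livers (SD, n = 4 each), and it did not pass either (edgeR adjusted p = 0.47).

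Aldh3a2 (ENSMUSG00000010025; chromosome 11, 61114243 to 61158290 as the table lists it without naming a build, minus strand) had the smallest p of the family. It encodes the fatty aldehyde dehydrogenase of the endoplasmic reticulum, which oxidises long-chain aldehydes to fatty acids and is mutated in human Sjögren-Larsson syndrome. It stood at 4.99, 8.98, 5.41 and 6.44 FPKM in deficient livers, against 16.8, 15.2, 28.0 and 13.5 FPKM in wild-type livers. All 4 deficient values were below all 4 wild-type values, with wild-type library 3 well above the others. Its level was 35.1% of wild type (log2 fold change -1.51, SE 0.26, edgeR adjusted p = 0.00546), and it was called in all 17 alternatives. Within each library, Aldh3a2 was 0.0161 to 0.027 of the Aldh2 level in deficient livers and 0.0354 to 0.0649 in wild-type livers, without overlap.

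The cytosolic retinal dehydrogenase gene Aldh1a1 (ENSMUSG00000053279), whose product makes retinoic acid, was at 20.2, 41.5, 15.8 and 28.8 FPKM in deficient and 77.3, 43.9, 74.5 and 43.5 FPKM in wild-type livers. Deficient library 2 came close to the lowest wild-type libraries, and the groups did not overlap. The log2 fold change was -1.17 (SE 0.30, edgeR adjusted p = 0.0216), and the call was lost without deficient 1, deficient 3 or wild-type 3, at 0.053 to 0.0662. Its neighbour and close copy Aldh1a7 averaged 25.9 ± 6.37 FPKM in deficient and 39.6 ± 8.10 FPKM in wild-type livers (SD, n = 4 each) and narrowly missed the threshold (-0.61, edgeR adjusted p = 0.0544). The transcripts of Aldh1a1 and Aldh1a7 share 6.54% and 7.49% of their 50-base words with each other, so some reads could be assigned to either. The other retinal dehydrogenase genes, Aldh1a2 and Aldh1a3, were below 4 FPKM in every library and did not pass.

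Another 4 aldehyde dehydrogenases of mitochondria or amino acid breakdown were lower, with estimates between -0.78 and -0.52. Aldh1b1 (ENSMUSG00000035561), a mitochondrial acetaldehyde dehydrogenase, was at 11.9, 7.68, 7.45 and 8.75 FPKM in deficient and 14.3, 13.6, 17.1 and 13.9 FPKM in wild-type livers, without overlap (-0.72, SE 0.18, edgeR adjusted p = 0.0176). Aldh5a1 (ENSMUSG00000035936), the succinic semialdehyde dehydrogenase of GABA breakdown, was at 1.39, 1.52, 1.33 and 1.52 FPKM in deficient and 2.12, 2.17, 3.11 and 2.26 FPKM in wild-type livers (-0.75, SE 0.18, edgeR adjusted p = 0.0168). Aldh4a1 (ENSMUSG00000028737), which completes proline breakdown to glutamate, was at 9.80, 13.9, 9.10 and 14.9 FPKM in deficient and 18.7, 17.7, 27.0 and 18.4 FPKM in wild-type livers (-0.78, SE 0.21, edgeR adjusted p = 0.0237). Groups did not overlap for either gene, and wild-type library 3 stood above the other wild-type libraries in both. Aldh7a1, of lysine breakdown, fell by 0.52 (SE 0.16, edgeR adjusted p = 0.0419).

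Some of these calls depended on single libraries or on the scaling. Without wild-type 3 the edgeR adjusted p was 0.058 for Aldh1b1, 0.0582 for Aldh5a1 and 0.0795 for Aldh4a1. Aldh1b1 also lost its call without deficient 3 (0.05), and Aldh4a1 without deficient 1 (0.0569) or deficient 3 (0.0656). Aldh7a1 lost its call in 7 of the 8 analyses that left a library out, at 0.0581 to 0.123, and kept it without deficient 2. With scaling to hepatocyte markers the log2 fold change was -0.34 for Aldh1b1, -0.38 for Aldh5a1, -0.43 for Aldh4a1 and -0.18 for Aldh7a1, and none of the 4 was called (edgeR adjusted p = 0.23, 0.133, 0.0765 and 0.395). Aldh7a1 also missed the threshold with library totals alone (0.0958), without the expression filter (0.0703) and in both limma analyses (0.0817 and 0.0831). Aldh7a1 overlaps Phax on the opposite strand, but Phax had 1773 reads in all against 31110 for Aldh7a1. Aldh4a1 shares 45.0% of its 50-base words with the overlapping model Gm21969, which had 0 reads in the table.

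Aldh3b3, a low-level relative of Aldh3a2, fell by 1.12 (SE 0.34, edgeR adjusted p = 0.0374), at 0.279 ± 0.0732 FPKM in deficient and 0.608 ± 0.163 FPKM in wild-type livers (SD, n = 4 each). It rested on 78 reads over the deficient libraries and 155 over the wild-type libraries. Its call was lost without any 1 library except deficient 2 or wild-type 4, at 0.0581 to 0.0934, with library totals alone (0.0603), without the expression filter (0.0592) and with scaling to hepatocyte markers (0.126). The valine-breakdown gene Aldh6a1 missed the threshold (-0.52, edgeR adjusted p = 0.0529) with groups that did not overlap. Aldh9a1, an enzyme of carnitine synthesis, had a log2 fold change of -0.26, Aldh8a1 of -0.17, Aldh16a1 of -0.06 and Aldh18a1, of proline synthesis, of 0.08. These 4 had edgeR adjusted p-values of 0.367 to 0.878.

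Aldo-keto reductases split between the Akr1c cluster and the rest. In the Akr1c subfamily, which holds the hydroxysteroid dehydrogenases, 5 of 6 tested genes were lower, and the median log2 fold change was -1.005. Of the Akr1b aldose reductase-like genes, all at low level, 0 of 4 were called by edgeR, and 0 at an unadjusted p under 0.05. Akr1a1, the general aldehyde reductase, was the flattest abundant gene here. It averaged 93.8 ± 4.15 FPKM in deficient and 94.4 ± 4.20 FPKM in wild-type livers (SD, n = 4 each), with a log2 fold change of -0.01 and a 95% interval of -0.30 to 0.28. Its estimate was above 0 with library totals left unscaled (0.14), in limma (0.13) and with scaling to hepatocyte markers (0.36).

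Akr1c6 (ENSMUSG00000021210), a 17-beta-hydroxysteroid dehydrogenase, led the family at 126, 192, 113 and 157 FPKM in deficient libraries 1 to 4, against 336, 198, 356 and 234 FPKM in wild-type libraries 1 to 4. Deficient library 2 was close below wild-type library 2, and the groups did not overlap. It fell by 0.94 (SE 0.23, edgeR adjusted p = 0.0181). Within libraries, Akr1c6 stood at 1.16 to 2.02 times the Akr1a1 level in deficient livers and 2.1 to 3.74 times in wild-type livers. Its share of the family sum was 46.4% in deficient and 55.2% in wild-type livers.

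Akr1c19 (ENSMUSG00000071551) had the smallest p of all 55 genes. It was at 0.277, 0.664, 0.373 and 0.566 FPKM in deficient livers, against 2.25, 1.53, 1.54 and 1.38 FPKM in wild-type livers. Every deficient value was under the lowest wild-type value by a wide margin, although the level was low in both. It stood at 28.0% of wild type (log2 fold change -1.83, SE 0.29, edgeR adjusted p = 0.00462) and was called in all 17 alternatives. Akr1c19 was 0.0022 to 0.00361 of the Akr1c6 level in deficient livers and 0.00433 to 0.00771 in wild-type livers, without overlap.

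Akr1c14 (ENSMUSG00000033715), the 3-alpha-hydroxysteroid dehydrogenase, was at 4.36, 16.6, 5.71 and 15.9 FPKM in deficient and 39.2, 23.3, 41.1 and 22.7 FPKM in wild-type livers. Deficient libraries 1 and 3 were low and 2 and 4 higher, and wild-type libraries 1 and 3 were above 2 and 4, so each group had a wide spread without overlap. It fell by 1.57 (SE 0.40, edgeR adjusted p = 0.021). Akr1c20 (ENSMUSG00000054757) was high and low in the same libraries, at 10.5, 20.6, 9.01 and 22.4 FPKM in deficient and 43.2, 22.4, 36.9 and 28.9 FPKM in wild-type livers, and it fell by 1.07 (SE 0.30, edgeR adjusted p = 0.0295). In Akr1c20 deficient library 4 was just under wild-type library 2.

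Akr1c13 (ENSMUSG00000021213) was at 20.2, 19.9, 17.9 and 20.4 FPKM in deficient livers, a narrow range, and at 35.6, 23.4, 32.3 and 26.5 FPKM in wild-type livers. It fell by 0.59 (SE 0.16, edgeR adjusted p = 0.0253). Its near copy Akr1c12 had -0.35 (edgeR adjusted p = 0.126). Each of the pair shares 28.6% of its 50-base words with the other, so the split of reads between them is uncertain. Without deficient 3 the edgeR adjusted p was 0.0648 for Akr1c13, 0.0597 for Akr1c14, 0.0732 for Akr1c20 and 0.0539 for Akr1c6. Without wild-type 3 it was 0.0777 for Akr1c13, 0.0635 for Akr1c14, 0.0786 for Akr1c20 and 0.0602 for Akr1c6. Akr1c20 also lost its call without deficient 1 (0.069) or wild-type 1 (0.0664), and narrowly with scaling to hepatocyte markers (-0.77, 0.0515). Under that scaling Akr1c13 was at -0.24 (edgeR adjusted p = 0.342), and it missed the threshold with library totals alone (0.0727) and in both limma analyses (0.0833 and 0.0837).

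Of the remaining aldo-keto reductases, Akr1e1 had -0.69 (edgeR adjusted p = 0.0863). Akr1c18, the 20-alpha-hydroxysteroid dehydrogenase that inactivates progesterone, was not tested, with 15 reads over the deficient libraries and 63 over the wild-type libraries. Akr1b8 averaged 1.44 ± 1.11 FPKM in deficient and 0.780 ± 0.790 FPKM in wild-type livers (SD, n = 4 each) and did not pass (edgeR adjusted p = 0.369). Akr1b3, the aldose reductase, shares 86.2% of its 50-base words with other genes, most of them with the copy Gm38056, so its low level is uncertain.

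**Figure D2:**
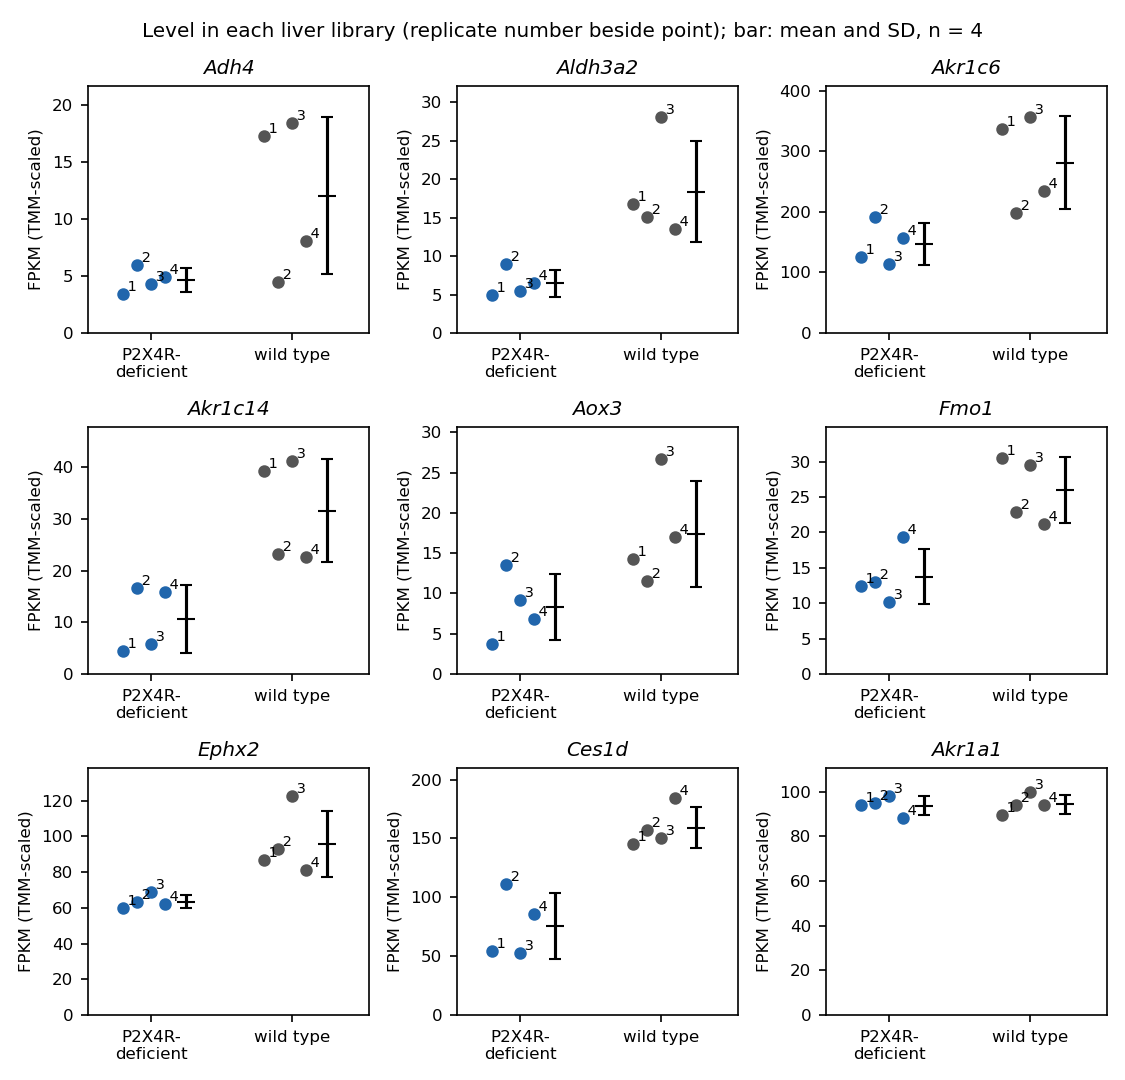
Level in each library, in TMM-scaled FPKM on an axis that starts at 0, of 9 genes, with P2X4R-deficient livers (blue) left of wild-type livers (grey), the replicate number beside each point, and the mean and SD of 4 libraries as a bar. Groups are apart for Aldh3a2, Akr1c6, Akr1c14, Fmo1, Ephx2 and Ces1d, they overlap for Adh4 and Aox3, and Akr1a1 lies between 88.1 and 99.97 FPKM in all 8.

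Flavin monooxygenases had the lowest summed level relative to wild type, and Fmo1 and Fmo5 were both lower. Fmo1 (ENSMUSG00000040181), which oxygenates many amine drugs, was at 12.5, 13.1, 10.1 and 19.3 FPKM in deficient and 30.5, 22.9, 29.5 and 21.2 FPKM in wild-type livers. It fell by 0.92 (SE 0.21, edgeR adjusted p = 0.0143), without overlap, and was called in all 17 alternatives. Fmo5 (ENSMUSG00000028088; chromosome 3, 97536120 to 97562598 as the table lists it, plus strand), a Baeyer-Villiger oxygenase of ketones, was at 22.1, 19.3, 14.0 and 29.3 FPKM in deficient and 48.1, 31.9, 38.2 and 38.7 FPKM in wild-type livers. It fell by 0.89 (SE 0.22, edgeR adjusted p = 0.0189), and deficient library 4 was nearest to wild type in both genes. With scaling to hepatocyte markers Fmo5 was at -0.55 and not called (edgeR adjusted p = 0.0857). Fmo2 and Fmo4 averaged under 1 FPKM in both groups and did not pass (edgeR adjusted p = 0.717 and 0.436), and Fmo6 and Fmo9 had 0 reads.

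The aldehyde oxidases did not pass the test. Aox3 (ENSMUSG00000064294), the main aldehyde oxidase of mouse liver, was at 3.76, 13.5, 9.21 and 6.84 FPKM in deficient libraries 1 to 4, against 14.3, 11.6, 26.7 and 17.0 FPKM in wild-type libraries 1 to 4. Deficient library 2 lay above wild-type library 2, so the groups overlapped. The log2 fold change was -1.06 (SE 0.35, edgeR adjusted p = 0.0517, 95% interval -1.83 to -0.30). Among the alternatives in which Aox3 passed were those without deficient 2, without wild-type 2, with DESeq2 and without the expression filter. The ratio of Aox3 to Aox1 overlapped between groups, at 3.43 to 5.94 in deficient and 5.68 to 10.2 in wild-type livers. Aox1 had -0.38 (edgeR adjusted p = 0.451), Aox2 had 5 reads in all, and Aox4 had 0. Aldehyde oxidases need the molybdenum cofactor. Of the 10 genes taken for its synthesis and use, 3 were lower and 2 higher, where 10.6% of all genes tested were lower and 9.27% higher. Estimates were below 0 for 8 of the 10 (median -0.31), where the share over all genes was 50.1%. Mocs3, which activates the sulfur carrier of the cofactor, rose by 1.21 (SE 0.19, edgeR adjusted p = 0.00481), at 4.88 ± 0.831 FPKM in deficient and 2.11 ± 0.134 FPKM in wild-type livers (SD, n = 4 each). Gphn (-0.69), Suox (-0.68) and Mocs2 (-0.62) were lower, and Mocs1 was the other of the 2 that were higher (0.74).

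Both abundant epoxide hydrolases had lower means, and one passed. Ephx2 (ENSMUSG00000022040; chromosome 14, 66321823 to 66361949 as the table lists it, minus strand), the soluble enzyme that hydrolyses epoxides of arachidonic acid, was at 59.9, 63.2, 68.9 and 61.9 FPKM in deficient libraries 1 to 4, against 86.5, 92.9, 122 and 81.3 FPKM in wild-type libraries 1 to 4. The deficient values lay close together and below every wild-type value. Ephx2 fell by 0.59 (SE 0.16, edgeR adjusted p = 0.0277), and lost its call without deficient 1 or 4, or wild-type 2 or 3, at 0.056 to 0.0917. It was not called with library totals alone (0.0604), in both limma analyses (0.0547 and 0.0564) or with scaling to hepatocyte markers (-0.22, edgeR adjusted p = 0.296). Ephx1, the microsomal enzyme that handles drug epoxides, averaged 54.2 ± 14.5 FPKM in deficient and 76.4 ± 11.6 FPKM in wild-type livers (SD, n = 4 each), with a log2 fold change of -0.50 (edgeR adjusted p = 0.106). The ratio of Ephx2 to Ephx1 overlapped between groups, at 0.953 to 1.51 in deficient and 1.03 to 1.38 in wild-type livers. Ephx3 and Ephx4 had too few reads to test.

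Carboxylesterases held the most abundant transcript of all 76 genes. Ces1c (ENSMUSG00000057400), a secreted esterase of mouse plasma, was at 810, 1138, 752 and 948 FPKM in deficient libraries 1 to 4, against 1278, 1579, 1549 and 1373 FPKM in wild-type libraries 1 to 4. Every deficient value was below every wild-type value. Ces1c fell by 0.66 (SE 0.17, edgeR adjusted p = 0.0209), and lost its call without deficient 3 (0.0601), wild-type 2 (0.0544) or wild-type 3 (0.0636). With scaling to hepatocyte markers it was at -0.31 (edgeR adjusted p = 0.101). It shares 17.0% of its 50-base words with other genes, of which 10.7% with Ces1b.

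Ces1d (ENSMUSG00000056973), a triacylglycerol hydrolase of hepatocytes, was at 54.0, 111, 52.5 and 85.5 FPKM in deficient livers, against 145, 157, 150 and 184 FPKM in wild-type livers. The wild-type libraries lay closer together than the deficient ones, and the groups did not overlap. Ces1d stood at 47.7% of wild type (log2 fold change -1.07, SE 0.24, edgeR adjusted p = 0.0128) and was called in all 17 alternatives. The ratio of Ces1d to Ces1c overlapped between groups, at 0.0667 to 0.0979 in deficient and 0.097 to 0.134 in wild-type livers. Ces1g (ENSMUSG00000057074), which limits hepatic lipid secretion in mice, was at 21.0, 44.6, 19.98 and 35.7 FPKM in deficient and 55.0, 57.1, 74.1 and 66.4 FPKM in wild-type livers. It fell by 1.06 (SE 0.25, edgeR adjusted p = 0.0158), and the adjusted p was 0.0508 without wild-type 3. Deficient libraries 1 and 3 were the low ones and 2 and 4 the higher ones in Ces1c, Ces1d and Ces1g alike.

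Ces1f fell by 0.87 (SE 0.27, edgeR adjusted p = 0.042), at 29.5 ± 9.72 FPKM in deficient and 53.9 ± 15.5 FPKM in wild-type livers (SD, n = 4 each). Its call was lost without deficient 1, 3 or 4, or wild-type 3 or 4, at 0.0627 to 0.128, with library totals alone (0.0616), in both limma analyses (0.0655 and 0.0666) and with scaling to hepatocyte markers (-0.54, 0.0857). Ces1b had -0.45 (edgeR adjusted p = 0.129) and Ces1e -0.69 (edgeR adjusted p = 0.0696). In the Ces1 subfamily 4 of 6 tested genes were thus lower, and all 6 estimates were below 0.

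In the Ces2 subfamily, intestinal and hepatic enzymes with preference for small acyl groups, 2 of 4 were lower. Ces2g (ENSMUSG00000031877; chromosome 8, 105688350 to 105696169 as the table lists it, plus strand) was at 7.39, 8.06, 7.35 and 6.16 FPKM in deficient and 10.1, 11.2, 14.0 and 10.96 FPKM in wild-type livers. It fell by 0.67 (SE 0.15, edgeR adjusted p = 0.014), without overlap, and was called with every library left out in turn. With scaling to hepatocyte markers it was at -0.30 and not called (edgeR adjusted p = 0.161). Ces2c (ENSMUSG00000061825) was at 10.7, 11.8, 15.1 and 12.1 FPKM in deficient and 19.8, 18.8, 27.3 and 15.4 FPKM in wild-type livers. Deficient library 3 was just under wild-type library 4. Ces2c fell by 0.71 (SE 0.19, edgeR adjusted p = 0.0239), lost its call without deficient 1 (0.0571), deficient 4 (0.0505) or wild-type 3 (0.0769), in both limma analyses (0.0557 and 0.0563) and with scaling to hepatocyte markers (-0.34, 0.18), and shares 38.2% of its 50-base words with the pseudogene Ces2d-ps.

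The other abundant carboxylesterases missed the threshold. Ces2a, at 76.5 ± 8.74 FPKM in deficient and 120 ± 33.1 FPKM in wild-type livers (SD, n = 4 each), had -0.65 (edgeR adjusted p = 0.0505). Ces2e had -0.24 (edgeR adjusted p = 0.25) with groups that did not overlap. Ces3a and Ces3b, which share 30.9% and 26.1% of their 50-base words with each other, had -0.45 and -0.81 (edgeR adjusted p = 0.316 and 0.0813). Ces1a, Ces2b, Ces2h and Ces4a had too few reads to test, and Ces1h, Ces2f and Ces5a had 0.

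Lower genes stood among others along the tandem arrays. Coordinates here are those of the deposited table, whose build is not stated. The Ces1 genes and Ces5a span 93746842 to 94262458 on chromosome 8, with 9 genes, 6 tested and 4 lower. The second carboxylesterase array, with Ces2, Ces3 and Ces4a, spans 105460635 to 105876741 on chromosome 8, with 10 genes, 6 tested and 2 lower. The Akr1c genes and Akr1e1 span 4099011 to 4659173 on chromosome 13, with 9 genes, 7 tested and 5 lower. The Akr1b array on chromosome 6 had 0 of 4 lower, the Adh array on chromosome 3 had 1 of 4, the Fmo array on chromosome 1 had 2 of 4 and the Aox array on chromosome 1 had 0 of 2.

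**Figure D3:**
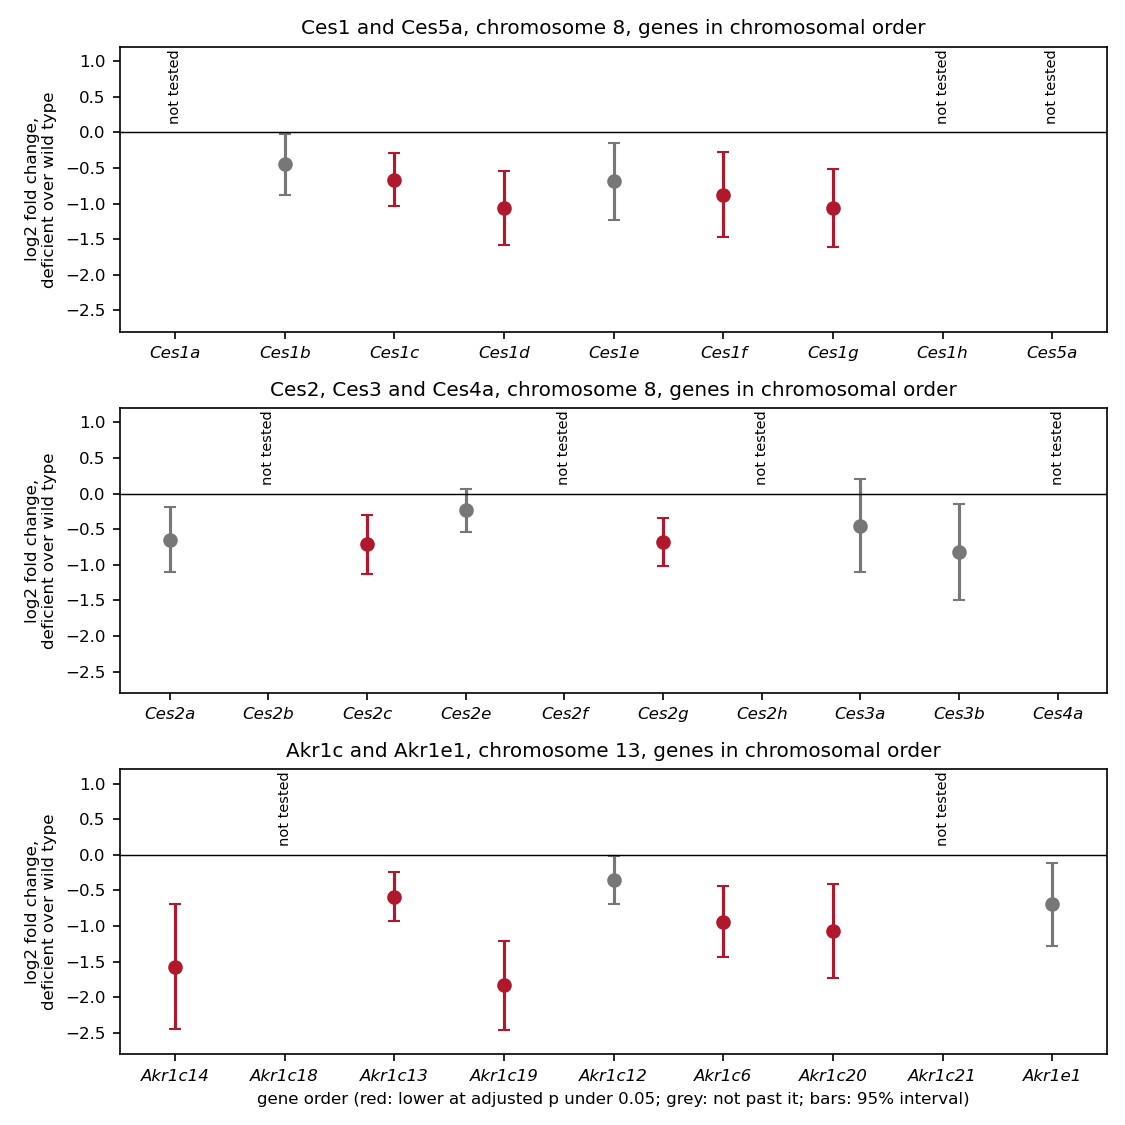
Log2 fold change, P2X4R-deficient over wild type, of the genes of 3 tandem arrays in chromosomal order (2 on chromosome 8, 1 on chromosome 13), with 95% intervals and 4 libraries per genotype. Red marks genes lower at an edgeR adjusted p under 0.05, grey marks genes not past it, and genes with too few reads are labelled; all estimates drawn are below 0.

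The order of the libraries within each genotype was counted over the 23 lower genes. Deficient library 3 was the lowest deficient library for 13 of them and deficient library 1 for 8, while deficient library 2 was the highest for 15. Relative to the wild-type mean, the median over the 23 genes was -1.15, -0.668, -1.31 and -0.751 on the log2 scale in deficient libraries 1 to 4, against 0.0388, -0.185, 0.231 and -0.183 in wild-type libraries 1 to 4. Wild-type library 3 was the highest wild-type library for 13 of the 23 and wild-type library 1 for 7. The lowest place among the wild-type libraries was spread, with 6, 8, 1 and 8 genes in libraries 1 to 4. The 23 were chosen as lower in these same libraries, so deficient medians below wild-type medians follow from that choice. Genes read in the same libraries are not independent of each other.

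The number of lower genes depended on the libraries used. With 1 library left out at a time it ran from 7 to 27. Removing wild-type 3 gave the 7, among them Aldh3a2, Akr1c19, Fmo1, Fmo5, Ces1d and Ces2g. Calls over all genes then fell from 2264 to 982. Removing deficient 3 gave 11 lower genes, with 1224 calls over all genes, and removing deficient 1 gave 15, with 1482. The 27 came from removing deficient 2, with 2388 calls over all genes. Median estimates of the 55 genes in the first 3 of these settings were -0.53, -0.58 and -0.58, against -0.59 with all libraries. All 23 lower genes had log2 fold changes below 0 in all 17 alternatives, and 5 of them, with Akr1c19, Aldh3a2, Ces1d and Fmo1 among them, were called in each. The alternatives reuse the counts from which the 23 were called, so a kept sign is not independent evidence. The plot of calls by setting gives the count for every alternative.

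**Figure D4:**
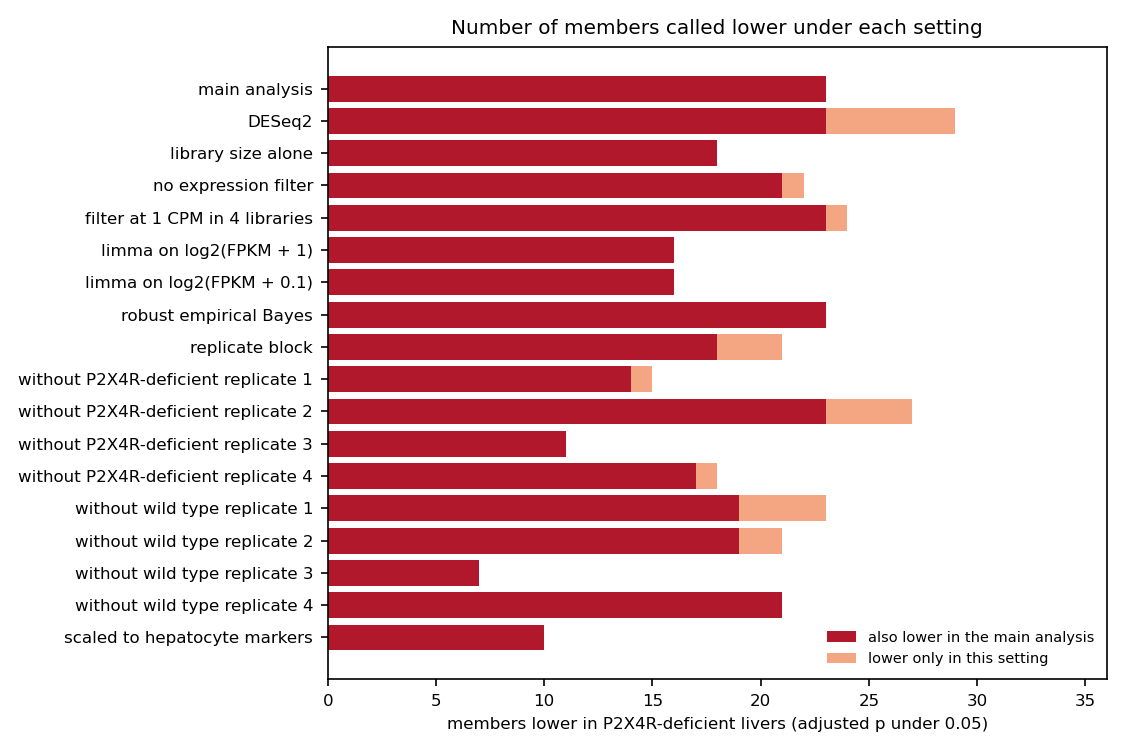
Number of genes of the 7 families called lower in P2X4R-deficient livers in the main analysis (23) and in each of 17 alternatives, on an axis that starts at 0. Dark bars count genes also lower in the main analysis and light bars genes lower only in that setting; the count runs from 7 without wild-type replicate 3 to 29 with DESeq2.

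Transcripts of hepatocytes and of other liver cells also differed between the libraries. In bulk tissue, fewer cells of a type and less RNA per cell cannot be told apart. The 11 hepatocyte markers found in the table summed to 98860 to 130100 CPM in deficient and 130400 to 152100 in wild-type livers. Of the 11, 2 (18.2%) were lower (Cps1 at -0.94 and Hpd at -0.63) and 0 higher, where 10.6% of all genes tested were lower and 9.27% higher. At an unadjusted p under 0.05, 7 of the 11 were lower, where 2047 of all 11380 genes were. Deficient values lay wholly below wild-type values for 7 of the 11, where the share over all genes was 12.3%. The median log2 fold change of the 11 was -0.37. With libraries scaled to these 11 markers, a choice made after the data were seen, 10 of the 23 genes stayed lower, where 5.04% of all genes were lower and 26.5% were higher. That scaling moved the median of all genes to 0.356 and that of the 55 genes to -0.24. Among the genes that were not called, 12 estimates below 0 came out above 0 under this scaling, Adh1 (0.04), Aldh2 (0.02) and Akr1a1 (0.36) among them. Among the 10 that stayed lower were Adh4, Aldh1a1, Aldh3a2, Akr1c6, Akr1c14, Akr1c19, Fmo1, Ces1d and Ces1g. The 13 that were no longer called were Aldh1b1, Aldh3b3, Aldh4a1, Aldh5a1, Aldh7a1, Akr1c13, Akr1c20, Fmo5, Ephx2, Ces1c, Ces1f, Ces2c and Ces2g.

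Of 9 tested neutrophil markers 2 were higher (Mmp8 at 2.12 and Cxcr2 at 1.53) and 0 lower, and the 12 in the list summed to 95.7 to 183.5 CPM in deficient and 27.9 to 103.2 in wild-type livers. All 9 neutrophil estimates were above 0 (median 0.94), and 4 were higher at an unadjusted p under 0.05 in edgeR. Of 9 tested Kupffer cell markers 3 were lower and 0 higher, with sums of 42.2 to 60.4 CPM in deficient and 55.8 to 182.5 in wild-type livers. All 9 Kupffer cell estimates were below 0 (median -0.84), and 6 were lower at an unadjusted p under 0.05. Of 5 tested monocyte markers 1 was higher and 1 lower, of 4 for T and NK cells 1 was lower, and of 8 for endothelial cells 1 was higher and 1 lower. Of 9 tested markers of stellate and mesothelial cells 2 were lower, of 5 for cholangiocytes 1 was lower, and of 4 for erythroid cells 0 were called, with 4 lower at an unadjusted p under 0.05. Each of these lists had reads for all its markers found in the table. Over all 11380 genes tested, 10.6% were lower and 9.27% higher, and 50.1% of estimates were below 0. At an unadjusted p under 0.05, 2047 were lower and 1959 higher. The part of cell composition in the falls was not tested beyond the scaling to hepatocyte markers.

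Genes of other drug metabolism families were lower too. Of 52 tested P450 genes of families Cyp1 to Cyp4, 26 were lower and 0 higher (median -0.69), and of 45 tested glucuronosyl-, sulfo- and glutathione transferase genes 17 were lower and 0 higher (median -0.60). Beside these stand the 23 of 55 oxidoreductase and esterase genes that were lower, and the differences between the 3 groups were not tested.

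Enzymes with related chemistry outside the 7 families were also lower where they passed. Among 29 further carbonyl, quinone, retinol and amine oxidoreductases, 14 were lower and 0 higher, with a median of -0.61. Sord, the sorbitol dehydrogenase, fell by 1.64 (SE 0.27, edgeR adjusted p = 0.00484), at 67.4 ± 25.5 FPKM in deficient and 211 ± 38.2 FPKM in wild-type livers (SD, n = 4 each). Akr1d1, the bile acid 5-beta-reductase kept out of the Akr1 set, fell by 1.97 (SE 0.38, edgeR adjusted p = 0.00786). Dhrs1 (-0.92) and Hsd11b1 (-0.74), which regenerates active glucocorticoid, were lower as well. Among 16 tested esterases and lipases of other families 7 were lower and 0 higher, with Bche, the plasma butyrylcholinesterase, at -1.16, the fatty acid amide hydrolase gene Faah at -1.23, Abhd2 at -0.92 and the arylacetamide deacetylase gene Aadac at -0.65. Of 13 tested genes of retinoid handling, 2 were lower (Rdh7 at -0.99 and Rdh10 at -0.90) and 1 was higher (Bco1, which cleaves beta-carotene, at 0.55). These retinoid counts are 15.4% and 7.69%, beside 10.6% lower and 9.27% higher over all genes tested.

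Genes for the regulators of drug metabolism mostly did not pass. Of 18 tested, 3 (16.7%) were lower and 0 higher, where 10.6% of all genes tested were lower and 9.27% higher. The median of the 18 was -0.02. Ahr, the aryl hydrocarbon receptor, fell by 1.66 (SE 0.34, edgeR adjusted p = 0.0099), at 3.01 ± 1.74 FPKM in deficient and 9.53 ± 1.97 FPKM in wild-type livers (SD, n = 4 each). Its partner Arnt fell by 0.64 (SE 0.18, edgeR adjusted p = 0.0278), and Stat5b, a mediator of growth hormone, by 0.57 (SE 0.18, edgeR adjusted p = 0.0475).

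Targets of 2 regulators outside the 7 families were counted too. Over all genes tested, 10.6% were lower and 9.27% higher. Of 11 tested NRF2 targets 3 were lower and 0 higher. The 3 were Osgin1 (-2.29), Hmox1 (-1.45) and the malic enzyme gene Me1 (-0.89). Of 13 tested PPARA targets 4 were lower, among them Ehhadh (-1.02), Cpt1a (-0.80) and Acaa1b (-1.22), and the lipid droplet gene Plin2 was higher (0.99).

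Zonal and sex-biased liver genes complete the lists, to be read beside 10.6% lower and 9.27% higher over all genes tested. Of 12 tested pericentral markers 5 were lower and 0 higher (median -0.55), with Rgn at -0.93, Glul at -0.53 and Lect2 at -0.76. Of 11 tested periportal markers 2 were lower (Etnppl at -1.17 and Cyp2f2 at -0.68) and 2 higher (Sdsl at 1.12 and Arg1 at 0.60). Of 9 tested female-biased genes 5 were lower, among them Acot3 (-1.55), Cyp2b9 (-1.44), Cux2 (-3.05) and Cyp2b13 (-1.65). Of 7 tested male-biased genes 2 were lower, Mup20 (-1.40) and Nudt7 (-1.12). The Y-linked genes Ddx3y and Uty had 0 reads in all 8 libraries, and Eif2s3y and Kdm5d had 2 and 1 reads, all in deficient library 1. The part of zonation and sex-biased expression in the falls of the 7 families was not tested.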

How the data were processed

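Poly(A)-selected liver RNA was sequenced on an Illumina NovaSeq, per the labels' protocols. Per the file headers, the deposited table lists raw read counts beside FPKM values, for every gene in all libraries. The authors' FPKM values could be recomputed from counts, gene lengths and library totals to within 7e-05%. The submitters' processing notes name cutadapt and HISAT2 2.0.5. How reads were counted, whether by strand, and against which annotation and build is not given in the sources used here. Reads of overlapping genes can therefore not be separated. Replicates differed by more than counting noise (chi-square per degree of freedom 21.53 to 109.4).

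Counts were tested with edgeR 4.0.16 (R 4.3.3) by the quasi-likelihood method with TMM scaling, the default expression filter and no covariate, P2X4R-deficient over wild type, over 11380 genes. Benjamini-Hochberg adjustment was used, with calls at an adjusted p under 0.05. SE is the fold change over the square root of F. Levels were computed from counts and listed lengths. Floors of 3 reads cover counting error only. Alternatives were DESeq2 1.42.0, limma 3.58.1 on log2(FPKM + 1) or log2(FPKM + 0.1) (genes at 0.5 or more in 4 libraries), other scalings and filters, robust estimation, leaving out each library, and a block for the replicate number. The test was checked on simulated counts with known changes. It called 52.0% of simulated 2-fold and 92.8% of 4-fold changes, with 7 false calls, so a gene that did not pass may still differ. Shared 50-base words were counted over the longest transcripts of GENCODE M21.

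The genes and lists were chosen with earlier results of these data known. Named with values in every library were, for each family, the gene of highest mean level and up to 5 lower genes of smallest p. From each other list, up to 4 called genes of smallest p were named. A few genes that did not pass are named as near copies, as abundant or as near the threshold, the last chosen after their values were seen. A few genes that these rules name are counted but not reported here.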

Additional observations from a re-analysis of the deposited data

Results flagged for a closer look

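For each of the 55 tested genes and each genotype, the 4 libraries were checked for a single value far from the other 3 (a gap, as a share of the whole range, above Dixon's 95% limit). Of 110 groups checked, 6 had one, and chance gives about 1 in 20.

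In deficient livers 4 such values occurred, all in library 1. Adh1 was high there at 394.3 FPKM, with 328.6 to 336.7 in the other deficient libraries, and Aldh1l1 was low at 153.9 FPKM, with 219.2 to 224.2 in the others. Akr1b8 was high at 3.1 FPKM, with 0.7874 to 1.042 in the others, and Fmo2 was high at 1.743 FPKM, with 0.2888 to 0.4507 in the others. These 4 genes were not called. In wild-type livers 2 such values occurred, both in library 3 and both in genes that were lower in deficient livers. Aldh4a1 was at 27.04 FPKM there, with 17.72 to 18.71 in the other wild-type libraries, and Aldh5a1 at 3.106 FPKM, with 2.118 to 2.259 in the others. Without wild-type 3 neither gene passed, at edgeR adjusted p-values of 0.0795 for Aldh4a1 and 0.0582 for Aldh5a1.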

How the results depend on the processing

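The count of 23 lower genes was 29 with DESeq2, 24 and 22 with the stricter and with no expression filter, 23 with robust estimation, 18 with library totals alone and 16 with limma at either pseudocount. Leaving out 1 library at a time gave 7 to 27, and 982 to 2388 calls over all genes, against 2264. Scaling to hepatocyte markers, chosen after seeing the data, gave 10, and 3588 calls over all genes. It moved the median of all genes by 0.356, where library totals alone moved it to 0.143 and limma to 0.0954 or 0.128. All-gene calls split into 1055 higher and 1209 lower, against 1731 and 843 with library totals alone and 1602 and 813 with limma. With the replicate number as a block 21 were lower, 18 of them shared with the 23. Adh4 (edgeR adjusted p = 0.083), Akr1c13 (0.0525), Akr1c20 (0.0554), Aldh3b3 (0.0576) and Aldh7a1 (0.0736) were not called with the block, and Aox3 was (0.042). Deviations of same-numbered libraries from their group means had correlations of 0.134, -0.112, 0.0658 and -0.092, so the numbers were not taken to pair samples.

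Fold changes crossed 0 for 14 genes, each of them not called. Under hepatocyte scaling the estimates were 0.0441 for Adh1, 0.001425 for Adh5, 0.293 for Aldh16a1, 0.015 for Aldh1a3, 0.167 for Aldh1l1, 0.0176 for Aldh2, 0.19 for Aldh8a1, 0.12 for Aldh9a1, 0.36 for Akr1a1, 0.0007494 for Akr1c12, 0.11 for Fmo2 and 0.13 for Ces2e. Aldh16a1 was at 0.0826 with library totals alone, 0.0763 and 0.0839 with limma, and -0.168 to 0.0188 with 1 library left out. Akr1a1 was at 0.14 with library totals alone, 0.02066 with no filter, 0.003139 with the stricter filter, 0.134 and 0.1355 with limma, and -0.0471 to 0.0166 with 1 library left out. With 1 library left out, Aldh18a1 ran from -0.109 to 0.280 and Adh7 from -0.0326 to 0.436. The causes were not tested. Of the 21 genes not tested, 12 had too few reads at this depth and 9 had 0 in every library.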
